A study of Mus musculus with 24 samples.

Results

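The 10 genes described here are core components and a direct output of the circadian clock: Arntl (which encodes BMAL1), Clock, Per1, Per2, Per3, Cry1, Cry2, Nr1d1, Nr1d2 and Dbp. They were chosen by symbol and are 10 of the 24537 genes in the count table. All 10 were present, and all 10 passed the filter on low counts that left 15478 genes for testing.

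RNA was sequenced from the fast-twitch extensor digitorum longus (EDL) and the slow-twitch soleus (SOL) of 2-month-old mice. Acta1-Cre+/4Fhet mice (Cre+) carry an Acta1-driven Cre, a doxycycline-inducible cassette of Oct4, Sox2, Klf4 and Myc (OSKM) at Col1a1, and an rtTA activator at ROSA26 behind a LoxP-STOP-LoxP block. Cre opens the block in myofibers, and the other cells of the muscle should keep it closed. Acta1-Cre-/4Fhet controls (Cre-) carry the same cassette and activator without Cre, and mice of both genotypes drank water with 1 mg/ml doxycycline (Dox), so no library is free of Dox. The muscles were taken after 2.5 days, 5.5 days and 8.5 days of it. Each muscle, genotype and day has 2 libraries, 24 in all. The study describes the 2 as independent biological samples, the labels do not name the animals, and the p values measure the spread between these libraries.

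The total count per library lay between 36088781 and 54679082, and the smallest count of a clock gene in any library was 102. Pou5f1, Sox2 and Myc, summed with Klf4, rose with Cre: the summed level in EDL was between 9.48 and 20.5 FPKM (the count per length of exon and per total count of the library) in Cre- libraries of all days, and between 74.5 and 261 FPKM in Cre+ libraries of 2.5 days and 205 and 254 FPKM at 8.5 days. In SOL the Cre+ libraries of those days had 31.3 to 57.8 FPKM, against 13.6 to 25.2 FPKM in Cre-. At 5.5 days the Cre+ libraries reached 13.1 and 109 FPKM in EDL and 8.43 and 15.4 FPKM in SOL. The study's methods left out samples without OSKM overexpression, and all libraries of 5.5 days are kept here as a further day. Slow-fiber transcripts summed to between 22465 and 37967 FPKM in SOL and between 112 and 1134 FPKM in EDL, as the muscle labels say.

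In the clock, BMAL1 and CLOCK bind E-boxes as a pair and activate the Per and Cry genes, Nr1d1, Nr1d2 and Dbp. PER and CRY proteins then hold that pair back, and the proteins of Nr1d1 and Nr1d2 (REV-ERBα and REV-ERBβ) repress Arntl through RORE sites, so that over a day Arntl peaks roughly opposite to Dbp and the Per genes. DBP acts at D-boxes of further genes, Per3 among them. In skeletal muscle the clock sets daily rhythms of many genes of metabolism and contraction. The level of each of these genes thus depends on the hour at which a muscle is collected. That hour is not given in the sources used here. The day of Dox, the hour of collection and the harvest cannot be told apart. A difference between days is shared by all libraries of a day, whereas a difference between Cre+ and Cre- is taken within a day. The hour of each animal within a day is not given either. A difference between Cre+ and Cre- thus cannot be told apart from a difference in hour within that day.

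The promoters carry the letters through which these genes are known to act on each other, and the stretches that hold them are shown so that the members can be compared by them. Windows from 250 bases before to 50 bases after each transcript start (RefSeq, GRCm38.p6) existed for 9 of the 10 members, all but Per2. They were searched on both strands for the E-box CACGTG, the E′-box CACGTT, the D-box TTANGTAA and the RORE core TAGGTCA or TGGGTCA, which occur in 7.15%, 4.685%, 2.323% and 6.453% of 32851 such windows. Capitals mark the match, and AACGTG is the E′-box read on the opposite strand. The Arntl match follows the start of the second of its 2 windows, at chr7:113207533-113207555 on the plus strand.
Arntl: gcagaaagTAGGTCAgggacgga
Per1 has an E-box 166 bases before the start of the first of its 2 windows, and no match in the other. The stretch shown is chr11:69098763-69098808 on the plus strand.
Per1: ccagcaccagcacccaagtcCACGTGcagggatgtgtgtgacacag
Per3 has a D-box 205 bases and another 158 bases before its start, at chr4:151044796-151044890 on the minus strand.
Per3: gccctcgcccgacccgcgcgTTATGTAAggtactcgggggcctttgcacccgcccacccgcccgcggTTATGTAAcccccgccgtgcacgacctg
Cry1 has an E′-box 79 bases and an E-box 60 bases before its start, at chr10:85185089-85185153 on the minus strand.
Cry1: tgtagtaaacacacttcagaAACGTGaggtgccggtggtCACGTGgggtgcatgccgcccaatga
Cry2 has an E′-box, in the stretch chr2:92434210-92434255 on the minus strand.
Cry2: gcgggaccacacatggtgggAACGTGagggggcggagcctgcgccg
Nr1d1 has an E′-box 28 bases before its start, at chr11:98775380-98775425 on the minus strand.
Nr1d1: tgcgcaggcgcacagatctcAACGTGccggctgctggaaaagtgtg
These letters were not found in the windows of Clock, Nr1d2 and Dbp. A match is a description of the sequence and was not tested for binding, and a missing match says only that these letters are not in this window.

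Over all 24 libraries the mean level per exon length was highest for Dbp, at 90.1 FPKM, followed by Nr1d1 (52.8), Per1 (29.5), Nr1d2 (29.3), Cry2 (19.7), Per3 (11.3), Cry1 (5.66), Per2 (4.7), Arntl (4.01) and Clock (2.81). The order was not the same on every day. Per1 and Nr1d2 differed by far less than their SDs of 10.7 and 8.25 FPKM, and the neighbours Cry1 and Per2, Per2 and Arntl, and Arntl and Clock each differed by less than the larger of their SDs (1.1, 2.52, 3.9 and 1.27 FPKM in that order of genes).

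Arntl, the partner of CLOCK in the activating pair, had the largest difference from 2.5 to 8.5 days among the members, in both muscles. Its lead in size over Per2 in EDL was smaller than the SE of either gene. In EDL the Cre- libraries had 1.36 and 1.58 FPKM at 2.5 days, 2.54 and 2.75 FPKM at 5.5 days and 5.38 and 8.37 FPKM at 8.5 days. The EDL Cre+ libraries had 1.06 and 1.46 FPKM, then 2.54 and 2.67 FPKM, then 4.14 and 4.28 FPKM on the same days. In SOL the 4 libraries of 8.5 days held between 11 and 12.4 FPKM, and the 8 earlier ones between 0.862 and 1.91 FPKM. In each muscle every library of 8.5 days was thus above every earlier one, in both genotypes. From 2.5 to 8.5 days, averaged over both genotypes, Arntl rose by a log2 fold change of 2.00 ± 0.19 (SE) in EDL (adjusted p = 2.99e-05, edgeR's quasi-likelihood test) and of 3.23 ± 0.20 in SOL (adjusted p = 3.5e-08). The gene lies at chr7:113207465-113314126 on the plus strand (mm10, as for all positions below).

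Clock, which encodes the other partner of the activating pair (chr5:76209868-76304792, minus strand), had smaller differences. In SOL it ran from 1.76 to 2.67 FPKM at 2.5 days and from 3.52 to 3.93 FPKM at 8.5 days with no overlap, a rise of 0.81 ± 0.21 (log2, adjusted p = 0.0147). The call was lost without the 2.5-day Cre- library 2 (0.84) or Cre+ library 2 (0.79) of SOL. It was also lost by edgeR with Cre- libraries alone (0.97, adjusted p = 0.073) and with Cre+ libraries alone (0.66, adjusted p = 0.196). In EDL the libraries of 2.5 days held 1.75 and 1.85 FPKM in Cre- and 2.98 and 5.19 FPKM in Cre+, and those of 8.5 days 6.85 and 2.64 FPKM in Cre- and 3.44 and 3.43 FPKM in Cre+. The highest EDL value of each day was thus 1 library of a pair whose other library lay far lower. The EDL difference of 0.60 ± 0.21 did not pass (adjusted p = 0.0761).

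Of the period genes, which encode repressors of the activating pair, Per2 and Per3 fell from 2.5 to 8.5 days and Per1 did not pass. Per2 (chr1:91415982-91459328, minus strand) had between 5.01 and 9.45 FPKM in the 16 libraries of 2.5 and 5.5 days. At 8.5 days its EDL libraries had 1.02 and 2.97 FPKM in Cre- and 1.96 and 1.9 FPKM in Cre+, and its SOL libraries 0.539 and 1.97 FPKM in Cre- and 0.846 and 0.654 FPKM in Cre+. No library of 8.5 days reached the lowest earlier one. Per2 fell by 1.85 on the log2 scale in EDL (SE 0.30, adjusted p = 0.00173) and by 2.64 in SOL (SE 0.31, adjusted p = 9.08e-05) from 2.5 to 8.5 days.

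Per3 (chr4:151003655-151044665, minus strand) had the smallest error of the period genes. In SOL its 8 libraries of 2.5 and 5.5 days lay between 13.9 and 17.2 FPKM, and those of 8.5 days at 3.63 and 5.12 FPKM in Cre- and 3.47 and 3.62 FPKM in Cre+. In EDL the 2.5-day libraries had 18.8 and 15.4 FPKM in Cre- and 12 and 9.4 FPKM in Cre+, and the 8.5-day libraries 7.37 and 8.13 FPKM in Cre- and 6.1 and 5.88 FPKM in Cre+. All of the 8.5-day libraries were lower than all others, and the EDL Cre+ libraries were below their controls on both of those days. Per3 fell by 0.97 in EDL (SE 0.11, adjusted p = 0.000167) and by 1.99 in SOL (SE 0.12, adjusted p = 1.63e-08).

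Per1 (chr11:69098956-69109957, plus strand), which besides its rhythm answers quickly to light and hormonal signals, split by replicate at 8.5 days. The EDL libraries of that day had 18.1 and 36.2 FPKM in Cre- and 24.1 and 10.2 FPKM in Cre+, and the SOL libraries of the same numbers had 17.8 and 36.5 FPKM and 24.1 and 7.7 FPKM. EDL and SOL libraries of a number therefore stood at close levels, while libraries of a group differed. On the other days the libraries lay between 22.4 and 51.7 FPKM. From 2.5 to 8.5 days Per1 differed by −0.43 ± 0.31 in EDL (adjusted p = 0.409) and −0.64 ± 0.31 in SOL (adjusted p = 0.16), neither past the threshold.

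Both cryptochrome genes encode partners of the PER proteins, and both fell in EDL. Cry2 (chr2:92403647-92434069, minus strand) had between 18.2 and 28.9 FPKM in the 16 earlier libraries and between 8.97 and 14.4 FPKM in the 8 libraries of 8.5 days, with no overlap. It fell by 0.71 in EDL (SE 0.11, adjusted p = 0.00144) and by 0.80 in SOL (SE 0.11, adjusted p = 0.000337). Cry1 (chr10:85131700-85185054, minus strand) fell in EDL, from between 5.68 and 7.09 FPKM to between 3.59 and 4.19 FPKM, by 0.74 (SE 0.11, adjusted p = 0.000821). In SOL it ran from 5.27 to 6.57 FPKM at 2.5 days and from 4.94 to 5.64 FPKM at 8.5 days, overlapping ranges with a difference of −0.10 ± 0.11 (adjusted p = 0.54).

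The REV-ERB genes, repressors of Arntl, moved in opposite directions. Nr1d1 (chr11:98767932-98775377, minus strand) had 27 and 27.3 FPKM in EDL Cre- and 41.4 and 30.8 FPKM in EDL Cre+ at 2.5 days. At 8.5 days the same groups had 74.8 and 63.2 FPKM and 78.4 and 88.4 FPKM. In SOL the range was 38.1 to 57 FPKM at 2.5 days and 67.5 to 99.8 FPKM at 8.5 days. In neither muscle did these days overlap. Nr1d1 rose by 1.30 ± 0.18 in EDL (adjusted p = 0.000657) and by 0.92 ± 0.18 in SOL (adjusted p = 0.00352). Its exons overlap those of Thra on the opposite strand, whether the counting used strand is not stated, and Thra was at 0.48 (adjusted p = 0.032) in the same EDL comparison.

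Nr1d2 (chr14:18204056-18239106, minus strand) went from between 30.7 and 47.5 FPKM in SOL at 2.5 days to 14.7 and 22.4 FPKM in Cre- and 14.2 and 15.5 FPKM in Cre+ at 8.5 days. It fell there by 1.17 (SE 0.14, adjusted p = 0.000111). In EDL the Cre- libraries of 8.5 days, with 36.1 and 28.2 FPKM, overlapped those of 2.5 days, with 34.7 and 39.1 FPKM, and the EDL difference of −0.39 ± 0.14 did not pass (adjusted p = 0.0902).

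Dbp, the output factor and most abundant member (chr7:45705247-45710203, plus strand), fell in both muscles. Its SOL libraries had 142 and 163 FPKM in Cre- and 118 and 146 FPKM in Cre+ at 2.5 days, and 34.8 and 40.1 FPKM and 20.1 and 37.3 FPKM at 8.5 days. In EDL the ranges were 84.7 to 116 FPKM and 50.3 to 79.8 FPKM. The days did not overlap in either muscle. Dbp fell by 2.08 in SOL (SE 0.21, adjusted p = 1.47e-05) and by 0.65 in EDL (SE 0.20, adjusted p = 0.0491). The EDL call lies at the threshold and was lost with each genotype alone, when the 5.5-day libraries were left out of the fit, and in 18 of 24 fits without 1 library (8 of EDL and 10 of SOL), with values from −0.76 to −0.51. Dbp overlaps Sphk2 on the opposite strand, and Sphk2 was at 0.85 (adjusted p = 0.00024) in the SOL comparison, against the direction of Dbp.

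**Figure D1:**
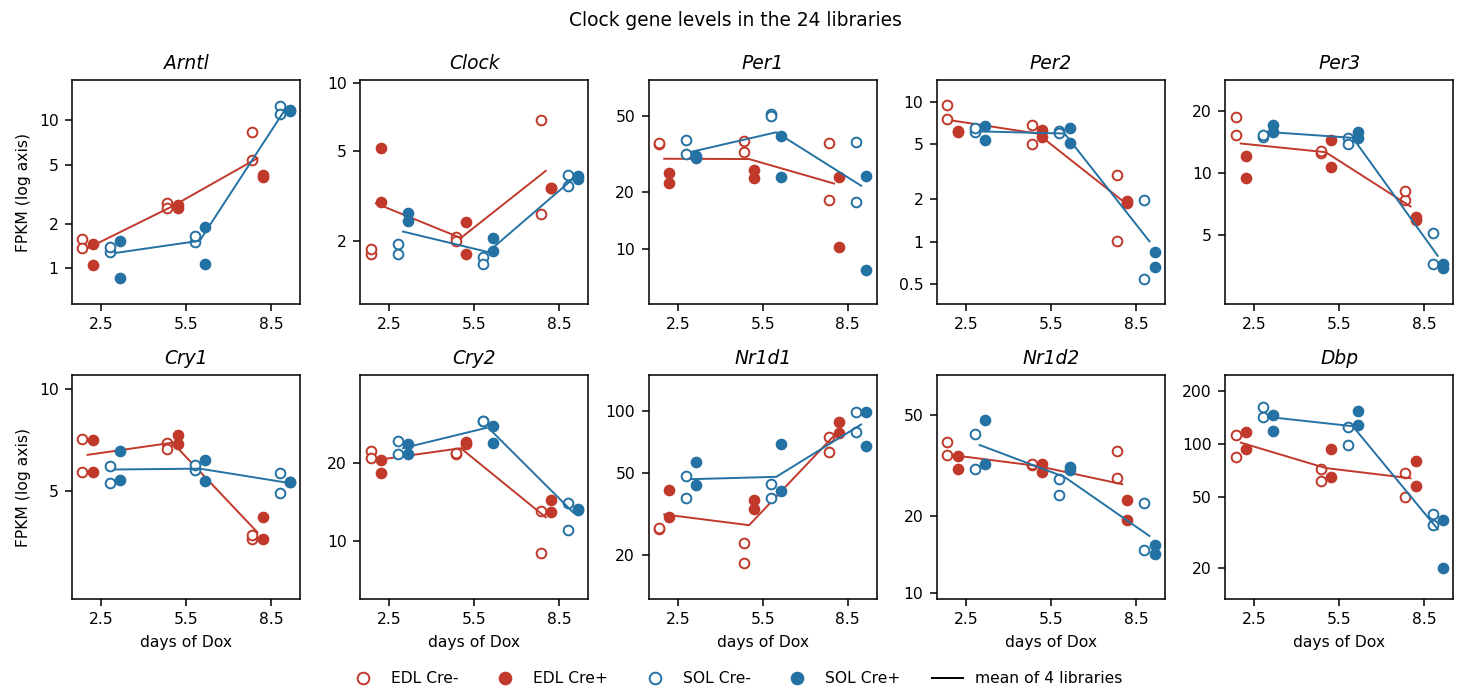
Level of each clock gene in the 24 libraries, as FPKM on a log axis, against days of Dox. Points are single libraries (red EDL, blue SOL, open Cre-, filled Cre+) and lines join the means of the 4 libraries of a muscle and day. Arntl and Nr1d1 are higher, and Per2, Per3 and Cry2 lower, in every library of 8.5 days than in every library of 2.5 days of the same muscle.

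Counted over the list, 7 of 10 members passed between 2.5 and 8.5 days in EDL (adjusted p under 0.05 and a log2 fold change over 0.5 in size), 2 of them higher (Arntl, Nr1d1) and 5 lower (Per2, Per3, Cry1, Cry2, Dbp). Over all genes tested, 6.38% passed, 3.92% higher and 2.46% lower. In SOL 8 of 10 passed, 3 higher (Arntl, Clock, Nr1d1) and 5 lower (Per2, Per3, Cry2, Nr1d2, Dbp), against 10.7% of all genes, 7.31% higher and 3.4% lower. The median log2 fold change of the members was −0.538 in EDL and −0.718 in SOL, where all genes had medians of −0.0248 and 0.0047. After TMM scaling the libraries of both days did not overlap for 6 members in EDL and 8 in SOL, against 8.15% and 22.3% of all genes. Per3 in EDL, which did not overlap as FPKM, did so after this scaling.

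The direction held within each genotype, apart from Clock in EDL. Of the 10 members, 9 in EDL and 10 in SOL had the same sign from 2.5 to 8.5 days in Cre- and in Cre+ mice. With Cre- libraries alone 7 members passed in EDL and 7 in SOL, against 0.769% and 3.8% of all genes. With Cre+ libraries alone 5 and 6 passed, against 7.88% and 2.49%, and 5 and 6 passed in both genotypes. The shares of all genes with the same sign in both genotypes, or passing in both, were not counted. Clock in EDL had 1.35 in Cre- (adjusted p = 0.0433) and −0.16 in Cre+ (adjusted p = 0.774). Since EDL and SOL libraries of a number deviated together, their counts were also summed so that each number counted once. The 8.5-day against 2.5-day differences were then 2.73 ± 0.16 for Arntl, −2.17 ± 0.27 for Per2, −1.45 ± 0.08 for Per3, −1.30 ± 0.15 for Dbp and 1.09 ± 0.16 for Nr1d1, and 8 of 10 members passed, where 8.94% of all genes did.

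**Figure D2:**
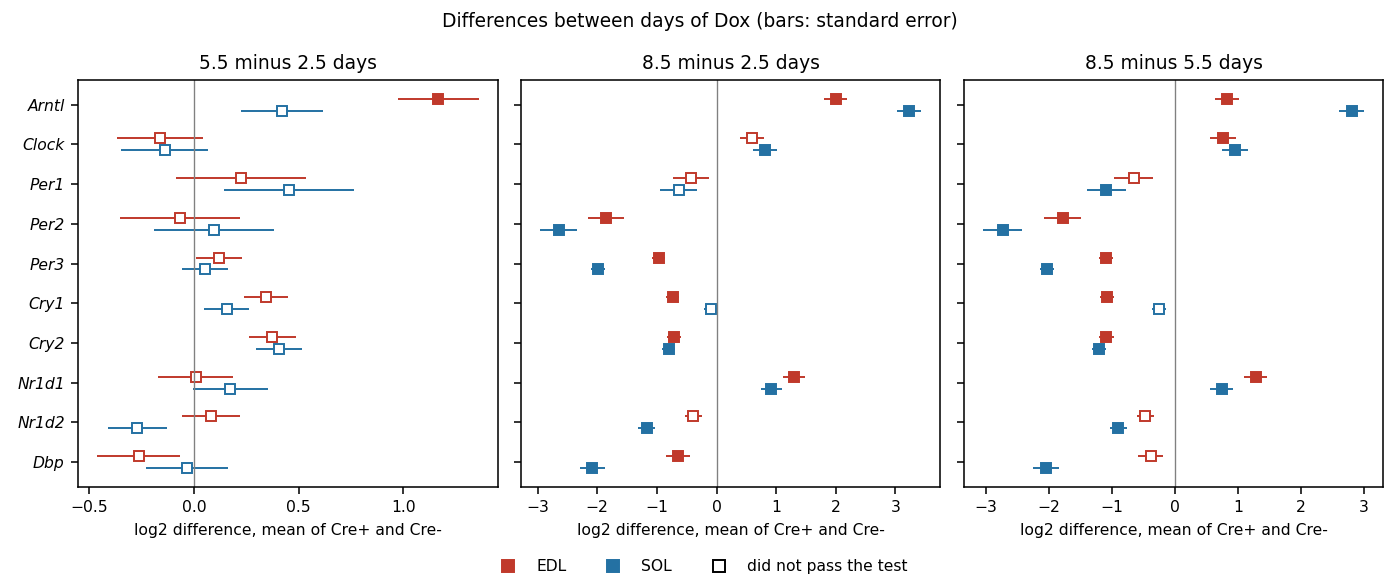
Log2 fold change between days for each clock gene in EDL and SOL, averaged over both genotypes, with bars of 1 SE. The 8.5-day differences spread to both sides of 0, up to 3.23 for Arntl in SOL and down to −2.74 for Per2 in SOL, while the 5.5-day against 2.5-day differences stay near 0 apart from Arntl.

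Between 2.5 and 5.5 days few members passed, and between 5.5 and 8.5 days most did. Between 2.5 and 5.5 days 1 member passed in EDL, Arntl with 1.17 ± 0.19 (adjusted p = 0.000508), where 14.8% of all genes did. In SOL 0 members passed by edgeR's quasi-likelihood test, against 8.13% of all genes. Arntl (0.42, adjusted p = 0.158) and Cry2 (0.41, adjusted p = 0.0223 but under the fold threshold) were the 2 members under an unadjusted p of 0.05, where 30.6% of all genes were, and DESeq2 called 0. From 5.5 to 8.5 days 7 members passed in EDL, 3 higher and 4 lower, against 16.4% of all genes, 11.3% higher and 5.19% lower. In SOL 9 passed, 3 higher and 6 lower, against 18.9%, 13.1% higher and 5.79% lower. Clock was among them in both muscles, with an EDL value of 0.76 (adjusted p = 0.0124) that fell to 0.35 and was lost without the 8.5-day Cre- library 1. Per1 passed in SOL, with −1.09 ± 0.31 (adjusted p = 0.0143), and was at −0.65 in EDL (adjusted p = 0.124). That Per1 call was lost without the 5.5-day Cre+ library 2 (−0.89), the 8.5-day Cre- library 1 (−0.90) or the 8.5-day Cre+ library 2 (−0.80). It was also lost with same-numbered Cre+ and Cre- libraries of a muscle and day as a replicate block.

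As a description of the same values, the variation of each gene over the 24 libraries was divided among day, genotype, muscle, their combinations and replicates. Day took 87.3% of the variation of Cry2, 82.4% of Per2, 81.5% of Arntl, 79.4% of Per3, 64.5% of Nr1d1, 64.4% of Dbp, 61.5% of Cry1, 53.6% of Clock, 52.7% of Nr1d2 and 35.5% of Per1. The median over all 15478 genes was 18.5%. Ranked by this share, Cry2 stood at 18, Per2 at 50, Arntl at 61 and Per3 at 98 among all genes, and Per1, the lowest member, at 3845. Genotype took 30.7% of the variation of Per1, 8.7% of Nr1d2, 4.6% of Per3 and under 3% of each other member, with a median of 4.7% over all genes. The combination of muscle and day took 25.1% of Cry1 and 23.3% of Dbp, and replicates took 28.5% of Per1 and 23% of Clock.

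**Figure D3:**
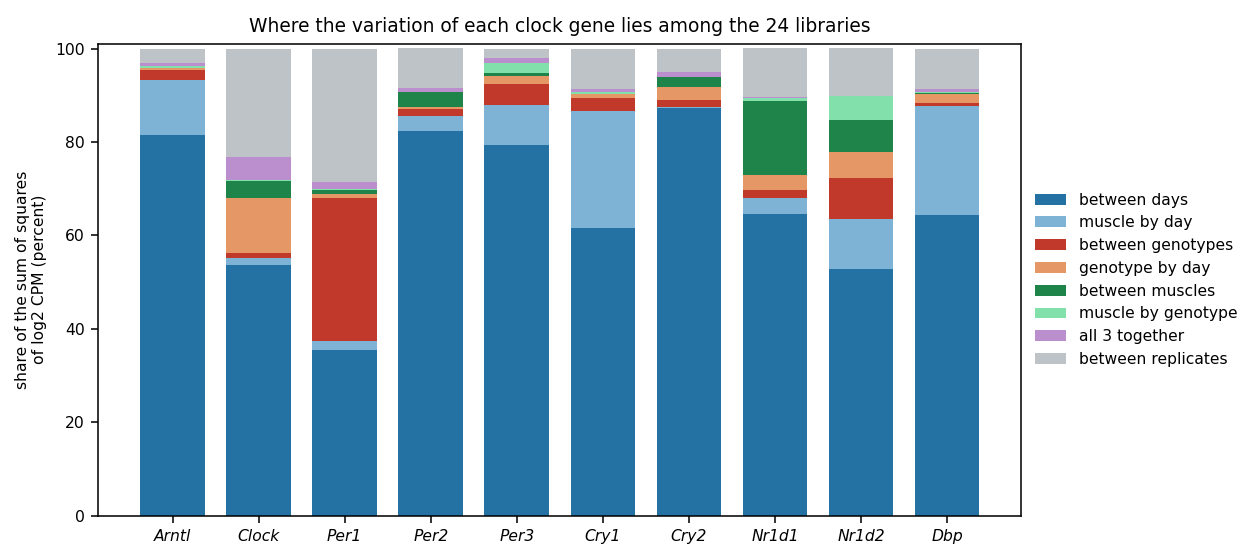
Share of each clock gene's variation (percent of the sum of squares of log2 CPM over 24 libraries) that lies between days, genotypes, muscles, their combinations and replicates. Day is the largest share in every member, from 35.5% in Per1 to 87.3% in Cry2, and genotype is large in Per1 alone, at 30.7%.

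Within a day, the members called between Cre+ and Cre- were called in EDL. At 2.5 days Per3 was lower in EDL Cre+ by 0.99 on the log2 scale (−0.99 ± 0.16, adjusted p = 0.00019) and Clock was higher (0.85 ± 0.29, adjusted p = 0.037). Cry2 passed the p threshold but not the fold (−0.47 ± 0.16, adjusted p = 0.0307). These 2 of 10 members compare with 25.1% of all genes. With the 4 libraries of the day alone, Per1 (−0.90, adjusted p = 0.0174) and Per2 (−0.77, adjusted p = 0.0239) passed beside Per3 by edgeR and Clock did not (0.86, adjusted p = 0.0661), and DESeq2 also called Per1 (−0.89) and Per2 (−0.76). Clock was lost too with same-numbered Cre+ and Cre- libraries as a replicate block (0.81, adjusted p = 0.0534) and in the fit of 16 libraries (0.84, adjusted p = 0.069). The Clock call rests on its Cre+ library 2: without it the difference was 0.44 (adjusted p = 0.444). It was also lost without either EDL Cre- library of 2.5 days (0.78 and 0.92), either EDL Cre+ library of 8.5 days, or 1 of 4 SOL libraries (0.83 each, adjusted p up to 0.053).

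At 8.5 days 3 members passed in EDL, all lower in Cre+, where 16% of all genes passed and 8.23% passed lower. Arntl differed by −0.90 ± 0.26 (adjusted p = 0.021), Nr1d2 by −0.79 ± 0.20 (adjusted p = 0.0101) and Per3 by −0.57 ± 0.16 (adjusted p = 0.0173). Both Cre+ libraries lay below both Cre- libraries for each of them. Without the Cre- library 1 of that group Arntl was at −0.57 and Nr1d2 at −0.63, and neither passed. Without the Cre+ library 1 Arntl (−0.86), Nr1d2 (−0.61) and Per3 (−0.53) did not pass, without the Cre+ library 2 Arntl (−0.93) and Per3 (−0.59) did not, and without the Cre- library 2 Per3 (−0.48) did not. With the 4 libraries of the day alone, edgeR called none of the 3 (Arntl −0.87, Nr1d2 −0.76, Per3 −0.54) and DESeq2 called all 3.

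At 5.5 days in EDL 0 members passed by edgeR, against 0.304% of all genes. Nr1d1 alone (0.63) had an unadjusted p under 0.05, where 8.44% of all genes did, and DESeq2 on those 4 libraries called Nr1d1 (0.65) and Per1 (−0.61). In SOL 0 members passed on any of the 3 days by edgeR, against 0.724%, 0% and 0.685% of all genes, and none had an unadjusted p under 0.05, where 14.9%, 3.86% and 7.04% of all genes did. DESeq2 on the libraries of each day called 0 members in SOL too.

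Averaged over the 3 days, 3 members were lower in EDL Cre+, where 17.2% of all genes passed and 7.58% passed lower: Per1 (−0.81 ± 0.25, adjusted p = 0.0191), Per3 (−0.57 ± 0.09, adjusted p = 0.00012) and Arntl (−0.54 ± 0.15, adjusted p = 0.0116). Nr1d2 (−0.50, adjusted p = 0.0027) was just under the fold threshold. The Per1 call was lost without the 2.5-day Cre+ library 2 (−0.77), the 8.5-day Cre- library 2 (−0.61) or the 8.5-day Cre+ library 2 (−0.66). It was also lost with same-numbered Cre+ and Cre- libraries as a replicate block (−0.82, adjusted p = 0.0708). Arntl came under the fold threshold without the 2.5-day Cre+ library 2 (−0.45) or the 8.5-day Cre- library 1 (−0.43), and Per3 without that Cre+ library. Over 2.5 and 8.5 days alone, the days with high OSKM, these 4 genes passed, at −0.91 for Per1, −0.78 for Per3, −0.72 for Arntl and −0.65 for Nr1d2, against 24.4% of all genes, 11.5% lower. In SOL 0 members passed on average, against 0.64% of all genes, by edgeR. Per1, at −0.64 (adjusted p = 0.257), was the only one under an unadjusted p of 0.05, where 14.2% of all genes were. With the EDL and SOL counts of a number summed, Per1 passed at −0.72 ± 0.23 (adjusted p = 0.0471) and Per3 (−0.33, adjusted p = 0.0042) and Nr1d2 (−0.29, adjusted p = 0.014) stayed under the fold, where 8.46% of all genes passed.

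The Cre+ minus Cre- difference of Per1 was below 0 in 6 of 6 combinations of muscle and day, from −0.92 to −0.35, and both Cre+ libraries lay below both Cre- libraries in 4 of them, at 2.5 and 5.5 days in each muscle. In the fit of 24 libraries by edgeR no single one of the 6 passed (lowest adjusted p = 0.127), whereas the fits of 4 libraries called it in EDL at 2.5 days (edgeR and DESeq2) and at 5.5 days (DESeq2). At 2.5 days the EDL libraries had 35.9 and 36.1 FPKM in Cre- and 25.2 and 22.4 FPKM in Cre+, and the SOL libraries 31.7 and 37.4 FPKM and 30 and 31 FPKM. Arntl, Per2 and Cry1 were also below 0 in 6 of 6, with Cry1 no further than −0.32. EDL and SOL of a number are not independent in this count. The same counts of signs and of separated libraries were not made over all genes, so they have no background to be read against.

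Other changes moved with genotype in EDL. The myofiber markers were Acta1, Ckm, Ttn, Des, Tnnc2 and Tnni2. They summed to between 61915 and 70340 FPKM in the EDL Cre- libraries and between 38102 and 61676 FPKM in Cre+. In the mean over days 4 of these 6 were called lower, where 7.58% of all genes were. Des went the other way, with 0.43 in that mean and a called rise of 0.92 at 8.5 days (adjusted p = 0.0038). Satellite cell markers summed to between 9.32 and 10.495 FPKM in Cre- and 11.3 and 16.5 FPKM in Cre+ at 2.5 days in EDL, between 11 and 11.5 and between 11.9 and 13.8 FPKM at 5.5 days, and between 11.6 and 14.3 and between 17.5 and 19.4 FPKM at 8.5 days, with none of the 4 called. Of all genes, 25.1%, 0.304% and 16% were called in EDL on those days. Liver transcripts in EDL at 8.5 days summed to between 4.36 and 6.05 FPKM in Cre- and between 0.538 and 0.748 FPKM in Cre+. Of these, 3 of 5 were called lower in Cre+, where 8.23% of all genes were called lower at 8.5 days. In bulk muscle, fewer cells of a type and less RNA per cell cannot be told apart, and the part of these changes in the clock gene differences was not tested. Scaling by library size alone moved the median of all genes by 0.223 in the mean EDL comparison, and Arntl, Per1 and Per3 were then at −0.32 (adjusted p = 0.104), −0.58 (adjusted p = 0.0858) and −0.35 (under the fold), so that 0 of 10 members passed.

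**Figure D4:**
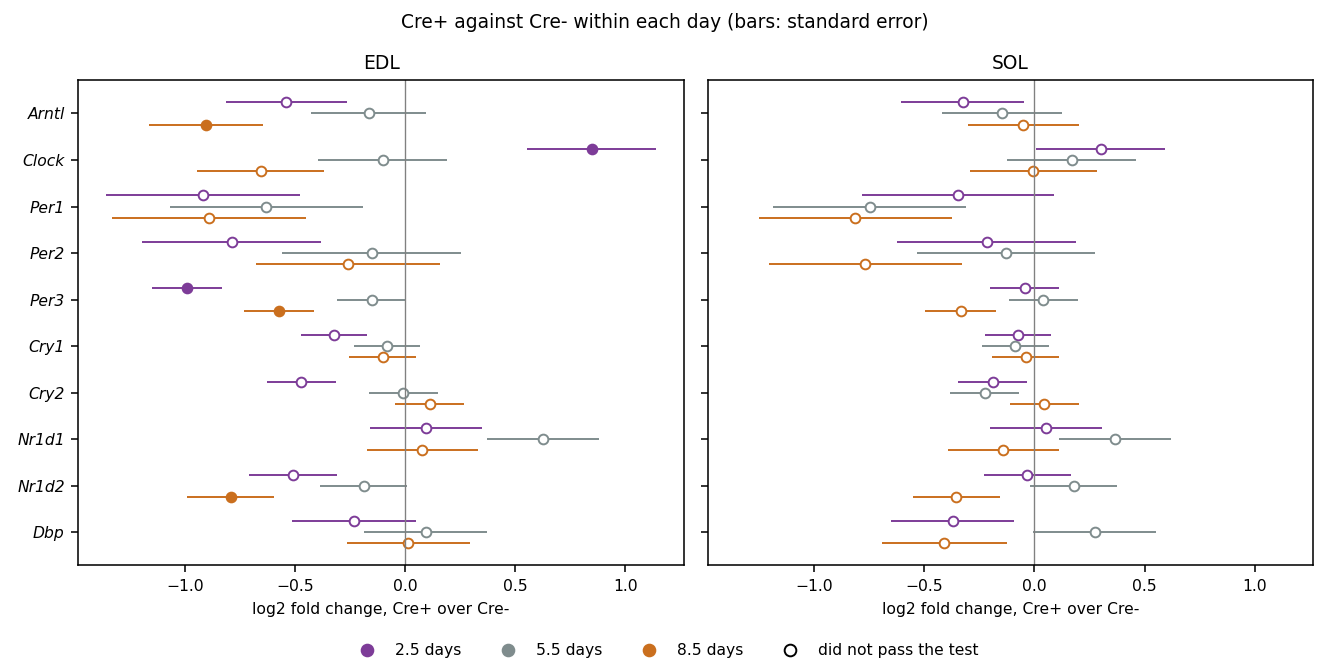
Log2 fold change of Cre+ over Cre- for each clock gene on each day in EDL and SOL, with bars of 1 SE. The EDL values of Per3 at 2.5 days (−0.99) and of Arntl, Nr1d2 and Per3 at 8.5 days lie furthest below 0 among the called ones, and Per1 is below 0 throughout, without a call on a single day in this fit of 24 libraries by edgeR.

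The genotype difference was tested against day and muscle. No member passed the test that the difference was the same on the 3 days, by edgeR, in EDL (3.02% of all genes) or SOL (0.0194%). In EDL the unadjusted p was under 0.05 for Per3, Clock and Cry2, and DESeq2 called 2 members. In SOL no member was under 0.05. Between muscles, over 2.5 and 8.5 days, Per3 alone passed: its difference was −0.78 in EDL and −0.19 in SOL, an interaction of −0.59 ± 0.16 (adjusted p = 0.0205), where 10.9% of all genes passed. That call was lost with library size alone (−0.43, adjusted p = 0.0791) and in 5 of 24 fits without 1 library, which were EDL Cre- 1 and Cre+ 2 and SOL Cre+ 2 of 2.5 days and SOL Cre- 1 and Cre+ 2 of 8.5 days (values from −0.57 to −0.50).

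In control mice 1 clock gene differed between the muscles past both thresholds. EDL minus SOL, averaged over the 3 days, passed for Nr1d1, which was lower in EDL (−0.60 ± 0.15, adjusted p = 0.00318), against 24.9% of all genes. Nr1d2 (0.46, adjusted p = 0.0036) and Per3 (0.36, adjusted p = 0.0038) were higher in EDL but under the fold threshold. The day difference from 2.5 to 8.5 days, averaged over both genotypes and not in controls alone, was also compared between muscles. It was larger in SOL for Per3 (interaction 1.01 ± 0.16, adjusted p = 0.0258), where 0.0646% of all genes passed. Dbp (1.43, adjusted p = 0.0742), Arntl (−1.24, adjusted p = 0.0906), Cry1 (−0.64, adjusted p = 0.116) and Nr1d2 (0.78, adjusted p = 0.122) did not pass by edgeR. With same-numbered EDL and SOL libraries as a replicate block, Dbp (1.46, adjusted p = 0.0161) and Arntl (−1.26, adjusted p = 0.0198) passed beside Per3. That block takes them as muscles of one mouse, which the labels do not say. DESeq2 called all 4 (highest adjusted p = 0.0178, Nr1d2). The Per3 call was lost in 11 of 24 fits without 1 library, 4 of EDL and 7 of SOL, all of 2.5 or 8.5 days, with values from 0.92 to 1.08.

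The replicates of a group were compared between the muscles. Of 60 comparisons of replicate 2 with replicate 1 (10 members in 6 pairs of an EDL with a SOL group), 39 or 65% had the same sign in EDL and SOL, where all genes had 56.15%. Nr1d1 and Cry2 had the same sign in 6 of 6, and Per1 in 5 of 6. Per1 at 8.5 days differed by 1.04 in EDL and 0.93 in SOL between the Cre- replicates, and by −1.14 and −1.57 between the Cre+ replicates (log2 CPM). Per2 differed by the same sign in 2 of 6, with the widest differences of the period genes, 1.58 in EDL and 1.75 in SOL, between the Cre- replicates of 8.5 days. These are counts over few pairs and were not tested.

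**Figure D5:**
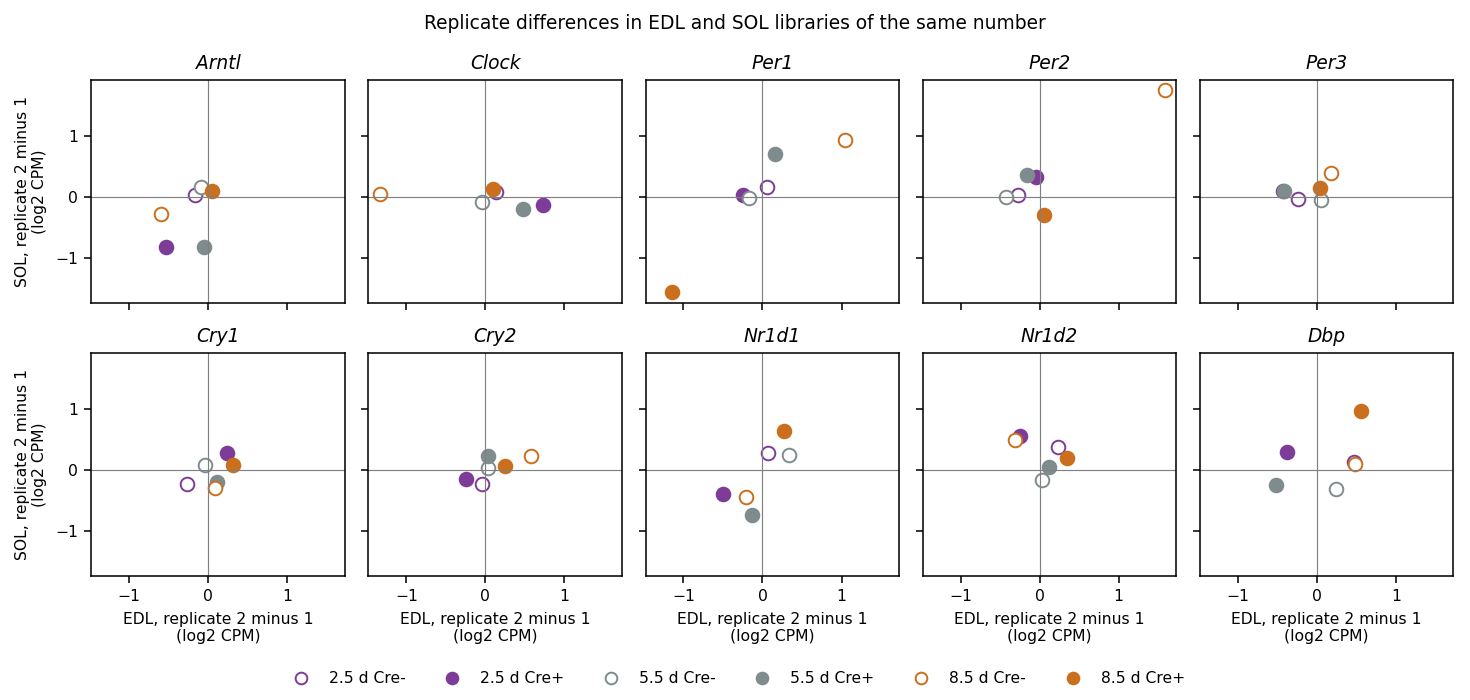
Replicate 2 minus replicate 1 of each group, as log2 CPM, in EDL (horizontal) against SOL (vertical) for the same genotype and day; each panel is a clock gene and each point a genotype and day. The 6 points of Nr1d1 and of Cry2 all lie in the lower left or upper right corner of their panels, and Per1 has its widest points at 8.5 days, from −1.57 to 1.04.

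Further clock factors changed between days and with genotype. Of 11 genes, among them Npas2, Arntl2, Rora, Rorb, Tef, Hlf, Nfil3, Bhlhe40, Bhlhe41 and Ciart, 1 rose and 3 fell between 2.5 and 8.5 days in EDL, and 1 rose and 5 fell in SOL, where 3.92% and 2.46% of all genes rose and fell in EDL and 7.31% and 3.4% in SOL. Their median log2 fold change was −0.388 and −0.631. Npas2, a relative of CLOCK that can replace it, had at most 0.244 FPKM in the libraries of 2.5 and 5.5 days, between 0.476 and 1.03 FPKM in EDL at 8.5 days and between 0.804 and 1.6 FPKM in SOL. It rose by 2.18 ± 0.27 and 3.06 ± 0.28. Hlf and Tef, which encode relatives of DBP that bind the same D-boxes, fell in both muscles, Hlf by 1.62 in EDL and 1.91 in SOL and Tef by 0.63 and 1.11. Ciart, a repressor of the activating pair, fell by 0.89 in EDL and by 3.19 in SOL, and its difference between muscles passed (2.30, adjusted p = 0.026). Bhlhe41 (−1.16) and Rora (−0.63) fell in SOL. Between 2.5 and 5.5 days Bhlhe40 rose in EDL (0.65) and SOL (0.64). In the mean of EDL Cre+ against Cre-, Bhlhe41 (−1.09), Nfil3 (−0.91) and Rorb were lower, with 0 of 11 in SOL, where 17.2% and 0.64% of all genes were called.

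Genes that act on clock proteins passed at shares near those of all genes, 6.38% in EDL and 10.7% in SOL. Of 10 kinases, ubiquitin ligase subunits and related enzymes, 9 were tested, none passed between 2.5 and 8.5 days in EDL and 1 fell in SOL, Usp2 (−0.86), a deubiquitinase. Csnk1e rose between 2.5 and 5.5 days in EDL (0.50), and Usp2 was lower in EDL Cre+ (−0.75). Of 8 muscle genes with known daily rhythms, 2 rose in EDL between 2.5 and 8.5 days, Pdk4 (1.28) and Ucp3 (0.79). In SOL 1 rose, Pdk4 (1.64), which limits the use of glucose, and 3 fell, the cell cycle kinase gene Wee1 (−1.04), Tcap of the sarcomere (−0.78) and Nampt of NAD synthesis (−0.64). Against genotype 4 of the 8 were lower in the mean of EDL, as 7.58% of all genes were: Tcap (−1.08), Hk2 (−0.99), Lpl (−0.64) and Nampt (−0.52).

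Genes that respond to other signals differed between days as well. Of 10 glucocorticoid targets 4 fell in EDL from 2.5 to 8.5 days (Fkbp5 −1.69, Ddit4 −1.22, Zbtb16 −0.90, Tsc22d3 −0.74) and 6 fell in SOL, where 2.46% and 3.4% of all genes fell. In the mean of EDL Cre+ against Cre-, 5 were lower, led by Cebpd (−1.48) and Sgk1 (−1.26), and 2 were higher, Mt2 (1.30) and Mt1 (1.04), where 17.2% of all genes passed. Of 12 immediate-early genes, 4 rose in EDL and 8 rose and 2 fell in SOL between 2.5 and 8.5 days, and 7 and 6 rose between 2.5 and 5.5 days. Of all genes, 6.38% and 10.7% passed between the first pair of days and 14.8% and 8.13% between the second. Whether these changes share a source with those of the clock genes was not tested.

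Markers of other cells also moved with the day. Macrophage markers summed to between 11.4 and 17 FPKM in EDL at 2.5 days and between 17.9 and 32 FPKM at 8.5 days, with 2 called higher, and in SOL to between 11.6 and 20.6 FPKM and between 17.4 and 26.2 FPKM, with 3 called. Of 4 neutrophil markers 3 were called higher in SOL, from a sum between 0.283 and 0.849 FPKM to one between 1.49 and 22.6 FPKM (2.31 FPKM at most without the Cre- library 1), with Ly6g at no more than 2 counts in any library. Fibroblast markers were not called between 2.5 and 8.5 days in EDL, and 2 were higher in SOL. Their EDL sum was 796 to 1398 FPKM at 2.5 days, 329 to 724 at 5.5 days and 1036 to 1696 at 8.5 days. Their SOL sum was 452 to 711, 300 to 469 and 850 to 1201 FPKM on those days. Of all genes, 3.92% in EDL and 7.31% in SOL were called higher from 2.5 to 8.5 days. Liver transcripts stood at 0.413 to 0.649 FPKM in SOL at 2.5 days, at 15 and 80.2 FPKM in the 8.5-day Cre- libraries and at 0.621 and 0.878 FPKM in the 8.5-day Cre+ libraries. Arntl rose in SOL by 3.09 in Cre- and 3.37 in Cre+ between these days. The part of these markers in the clock gene differences was not tested.

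As a description over the 24 libraries, which share muscles and replicate numbers, expression was correlated after taking out the mean of each muscle and genotype, among 11329 genes with a mean of at least 1 FPKM. The genes most like Dbp were Bhlhe41 (r = 0.930), Per3 (0.921), Ciart (0.919), Tef (0.903) and Ccdc85b (0.882), and among those most opposite to it were Ahdc1 (−0.905), Arntl (−0.890), Sipa1l3 (−0.875) and Fam110b (−0.862). Most like Arntl were Leo1 (0.931), Relt (0.931), Gem (0.917), Zfp609 (0.904) and Lrrc32 (0.900), and most opposite were Hlf (−0.932), Zfp788 (−0.922), Ccdc85a (−0.922), Ciart (−0.916) and Mchr1 (−0.909). Among the members, Per2 (−0.90), Dbp (−0.89), Per3 (−0.89) and Nr1d2 (−0.82) ran opposite to Arntl, and Nr1d1 (0.78) and Clock (0.68) with it. Cry1 had the weakest relation to Dbp (0.33) and Arntl (−0.39).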

How the data were processed

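The authors sequenced polyA RNA as stranded single-end reads, aligned them to mm10 with STAR 2.5.3a and counted unique reads on RefSeq exons with HOMER; FastQC 0.11.2 stands in the submitters' processing notes. The deposited values are raw counts per gene and library. Whether the counting used strand is not given in the sources used here.

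From these counts, FPKM was computed with the total count of each library and the exon lengths of the table. Differences were tested in R 4.3.3 with edgeR 4.0.16 (quasi-likelihood, TMM, minimum count 10), in one fit of 24 libraries with 12 group means. Day differences weighted both genotypes equally. P values were adjusted by Benjamini-Hochberg over 15478 genes, and a call needed an adjusted p under 0.05 and a log2 fold change over 0.5 in size. With 2 libraries against 2, an exact permutation test cannot go below p = 0.333, and none was used. Log2 CPM values used a prior count of 2. In data simulated from these libraries over 15478 genes, 58 of 100 genes changed 2-fold and 81 of 100 changed 4-fold were recovered for EDL at 2.5 days, and 73 and 97 of 100 for SOL at 8.5 against 2.5 days.

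EDL and SOL share replicate numbers. Deviations of same-numbered EDL and SOL libraries correlated with r between 0.173 and 0.445 in all 6 pairs. The fit of 24 libraries did not pair them, so its tests between muscles took them as independent. Alternatives with a replicate block or summed counts took them as muscles of the same mouse, which the labels do not say. The share of all genes with the same sign ran from 49.2% to 62.5%, and was 49.2% in Cre- at 5.5 days and at 8.5 days. Deviations of Cre+ and Cre- libraries, with r between −0.169 and 0.0578, were not treated as pairs in the fit of 24 libraries. An alternative did pair them, with a replicate block by number within each muscle and day. Alternatives were DESeq2 1.42.0, other scalings and filters, fits of fewer libraries, replicate blocks, summed muscles, and leaving out each library. The mean genotype effect per muscle, the day by muscle interaction and their alternatives were chosen after seeing the data. The members and gene lists were chosen with earlier results of these data known. All 10 members are named, with every called gene of the other clock lists up to 10 a comparison, apart from some items that are not reported here. Promoter sequences came from RefSeq (GRCm38.p6).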

Additional observations from a re-analysis of the deposited data

Results flagged for a closer look

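The difference between Cre+ and Cre- in Per3 was not the same in both muscles: over 2.5 and 8.5 days the interaction of muscle and genotype was −0.59 (log2, edgeR adjusted p = 0.0205), with Per3 at −0.78 in EDL and −0.19 in SOL, the SOL value not past the threshold. The day difference of Per3 was also not the same in both muscles. Its fall from 2.5 to 8.5 days was smaller in EDL than in SOL by 1.01 (adjusted p = 0.0258). Each was noticed because the difference between muscles itself passed its test, and each was lost in some fits without 1 library.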

How the results depend on the processing

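Over all comparisons and single members, 1475 of 1540 values under other settings and 3987 of 4080 without 1 library kept their side of the threshold. Direction was compared only where a value was called as reported or in the alternative, and none of those reversed. As reported, 43 member results were called. A value uncalled both times counts as kept whatever its direction. Counts of members passing follow, out of 10. For Cre+ against Cre- in EDL at 2.5 days the count went from 2 to 1 in the fit of 16 libraries and to 4 with DESeq2 on 4 libraries. It also went to 1 with same-numbered Cre+ and Cre- libraries as a replicate block. At 5.5 days in EDL it went from 0 to 2 with DESeq2. At 8.5 days in EDL it went from 3 to 1 with library size alone and to 0 with edgeR on 4 libraries, where genes called over all fell from 2482 to 1021. Between 2.5 and 5.5 days it went from 1 to 3 in EDL without a fold threshold, to 0 in Cre- alone and to 3 in Cre+ alone, and from 0 to 1 in SOL without a fold threshold and with both muscles summed. The day by genotype count in EDL went from 0 to 2 with DESeq2. The muscle by genotype count went from 1 to 0 with library size alone. The day by muscle count went from 1 to 3 without a filter, to 5 with DESeq2 and to 3 with same-numbered EDL and SOL libraries as a replicate block. The mean over days went from 3 to 0 in EDL with library size alone and to 1 when summed, and from 0 to 1 in SOL when summed. With same-numbered Cre+ and Cre- libraries as a replicate block Per1 was at −0.82 in EDL (adjusted p = 0.0708). The cause was not tested. The median share of variation between days was 64.45%, 63.25% with library size alone and 70.6% without 5.5 days, and that between genotypes 2.05%, 1.15% and 2.6%. Library size alone moved the median of all genes by 0.322 in EDL at 2.5 days. Without single libraries the counts ran from 1 to 3 (EDL 2.5 days), 0 to 3 (EDL 8.5 days), 0 to 4 (mean EDL), 6 to 8 (EDL, 8.5 against 2.5 days), 7 to 8 (EDL, 8.5 against 5.5 days), 7 to 9 and 8 to 9 (the same in SOL), 0 to 2 (day by genotype, EDL), 1 to 3 (muscle in Cre-), 0 to 1 (muscle by genotype) and 0 to 5 (day by muscle), and stayed at 1 between 2.5 and 5.5 days in EDL and at 0 in all others. Over all genes, calls for Cre+ against Cre- went from 3879 to 2434 in EDL at 2.5 days with edgeR on 4 libraries, from 47 to between 3 and 199 at 5.5 days over the alternatives, and in SOL from 112 to between 27 and 544, from 0 to 37 and from 106 to between 0 and 218. Day calls went to between 119 (987 as reported, EDL, 8.5 against 2.5 days, Cre- alone) and 5015 (2918 as reported, SOL, 8.5 against 5.5 days, no fold threshold). The day by genotype calls went from 467 to between 146 and 1184 in EDL and from 3 to between 1 and 43 in SOL, the day by muscle calls from 10 to between 5 and 232, and those of the mean over days from 2661 to 1343 in EDL and from 99 to between 64 and 1343 in SOL. With 2 libraries a group, a missed threshold does not show equal levels.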
